A study of Arabidopsis thaliana with 27 samples.

Results

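Root protoplasts were set against leaf protoplasts of a population that the study calls spongy mesophyll-like. The 2 populations differ in organ and in whether they carry out photosynthesis. The comparison used 6 of the 27 libraries of the series, which were all the libraries labelled as total root and all those labelled as GFP-positive cells of line JR11-2. The 3 root libraries came from protoplasts of whole roots of wild-type Col-0. The 3 JR11-2 libraries came from the first true leaves of a *GAL4-VP16* enhancer trap line in the Col-0 background, in which a modified GFP is brightest in the lower spongy mesophyll, and the protoplasts were sorted for both GFP and chlorophyll fluorescence. Plants of both groups were 17 d old, grew under constant white light of 50 µE, and were digested to protoplasts without transcription inhibitors. The JR11-2 libraries carry the pool labels D, E and F, and each pool also gave a library of GFP-negative, chlorophyll-containing cells. Nothing in the labels says whether the 3 root libraries came from separate plants, so p-values measure the spread between these samples, which may be technical. Organ, genotype and sorting gate changed together and cannot be told apart. JR11-2 is 1 enhancer trap line, and root protoplasts are a mixture of every root cell type that the enzymes released, so that fewer cells of a type and less RNA per cell cannot be told apart in these bulk libraries.

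Spongy mesophyll is the loosely packed lower layer of the leaf, which photosynthesizes and exchanges gases through its air spaces. Roots take up water and ions through root hairs and other epidermal cells, pass them across an endodermis that is sealed by the lignified Casparian strip, and load them into the xylem. Root cells hold plastids mostly without chlorophyll, which import carbon in place of fixing it and make their reducing power by oxidizing it, and for several plastid enzymes Arabidopsis has separate genes for leaves and for roots.

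Reads that the authors had counted on genes numbered 30338036 to 38792923 per root library, against 15431767 to 27247510 per JR11-2 GFP-positive library. Levels are given as CPM, the counts of a gene scaled to a common library size, after TMM scaling, a correction for differences in RNA composition. In a root library 3 counts, the limit that a count of 0 allows, correspond to 0.0581 to 0.0764 CPM, against 0.149 to 0.232 CPM in a GFP-positive library, and these limits cover counting error only. Nuclear genes with at least 2 counts numbered 22418 ± 296.5 in root libraries and 19864 ± 470.3 in GFP-positive libraries (SD, n = 3 each; two-sided exact permutation test, p = 0.1, below which 2 groups of 3 cannot go). The 100 most abundant genes took 14.9% ± 0.54 of the nuclear counts in root libraries and 28.7% ± 2.19 in GFP-positive libraries (SD, n = 3 each; exact p = 0.1). Across genes, which are not independent replicates, Pearson's r of log2 CPM was 0.980 to 0.990 between root libraries and 0.981 to 0.990 between GFP-positive libraries, but 0.566 to 0.608 between a root and a GFP-positive library.

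Of 22485 nuclear genes tested, 8254 were upregulated and 6026 downregulated in root at an FDR under 0.05 and a fold-difference over 2. Thus 63.5% of the genes were called, 36.7% as higher and 26.8% as lower in root. A gene group with shares near these does not differ in its counts from the genes as a whole. The median log2 fold change (root over GFP-positive) was 0.33 over all genes tested, and the median size among called genes was 2.77. Differences over 32-fold were found for 2303 genes upregulated and 1262 downregulated in root. At least 1 CPM was reached in every library of both populations by 14107 genes, in every root library by 17062 genes and in every GFP-positive library by 15765 genes. There were 555 genes with at least 1 CPM in every root library and 0 counts in all GFP-positive libraries, and 62 genes with the reverse pattern. In 80.1% of the genes tested the 3 root and the 3 GFP-positive libraries did not overlap. The 27 lists of genes described below hold 367 genes, of which 355 could be tested, and 175 of these were higher in root, 120 were lower and 60 were not called.

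**Figure D1:**
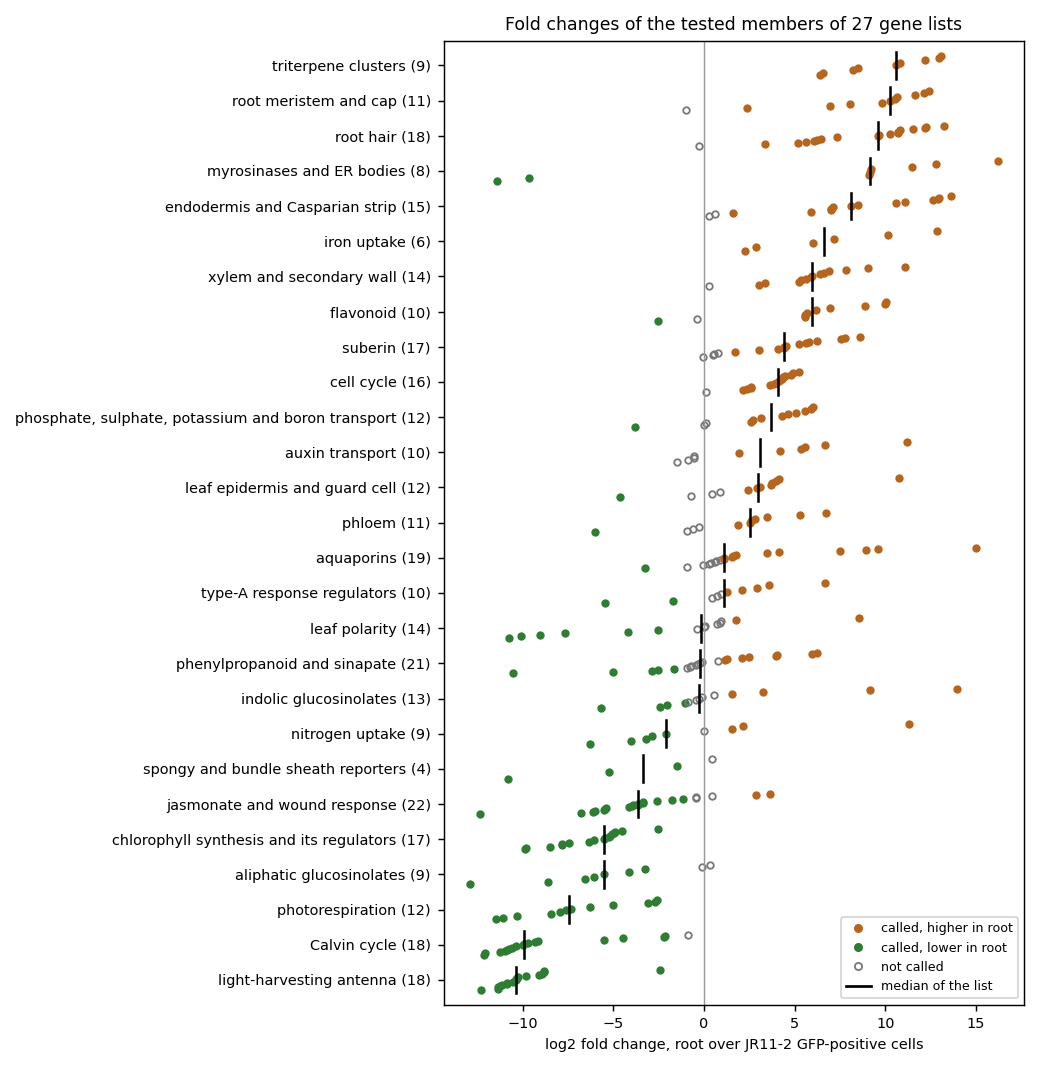
Log2 fold change (root over JR11-2 GFP-positive, x axis) of each tested gene in the 27 lists (y axis), with filled points for genes called at an FDR under 0.05 and a fold-difference over 2. The antenna, Calvin cycle, photorespiration and chlorophyll lists lie left of 0, the root cell type lists lie mostly right of 0, and the indolic glucosinolate and phenylpropanoid lists fall on both sides.

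Genes that mark the cell types of the root were present in the root libraries and near or at 0 in the GFP-positive libraries. Of the 18 root hair and root epidermis genes, 17 were higher in root, with a median log2 fold change of 9.60. The median was 6.14 when genes with 0 counts in GFP-positive cells were set at their bound. Genes with any count there kept the fitted value. *RHD6* (*AT1G66470*), a transcription factor that starts root hair growth, had 37.2, 43.6 and 30.3 CPM in the root libraries and 0 counts in every GFP-positive library, which makes it at least 209-fold higher in root. Its targets *RSL4* (*AT1G27740*) and *RSL2* (*AT4G33880*) were also at 0 counts in all GFP-positive libraries and at least 106-fold and 39.9-fold higher in root. The wall-loosening expansin *EXPA7* (*AT1G12560*) had 28.5, 34.6 and 19.97 CPM in root, against 0.0501, 0 and 0 CPM in GFP-positive cells. *PRX44* (*AT4G26010*), a peroxidase of the root hair wall, had 46.2, 55.9 and 21.7 CPM in root libraries, against 0.2505, 1.09 and 0.463 CPM in GFP-positive libraries (log2 fold change 6.05 ± 0.49, SE; FDR = 3.81e-07). The groups did not overlap for any of these genes, as for 80.1% of all genes tested. The exception was *RBOHC* (*AT5G51060*), an NADPH oxidase needed for hair outgrowth, which had 104, 126 and 75.4 CPM in root and 89.7, 127 and 155 CPM in GFP-positive cells. These ranges overlapped, and the difference did not pass the test (log2 fold change -0.28 ± 0.24, SE; FDR = 0.296).

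In the endodermis list, 13 of 15 genes were higher in root (median log2 fold change 8.08, or 7.12 at the bound). *ESB1* (*AT2G28670*), a dirigent protein that places lignin in the Casparian strip, had 181, 209 and 96.9 CPM in root libraries, against 0.601, 0.497 and 0.154 CPM in GFP-positive libraries. *CASP1* (*AT2G36100*), which marks the membrane under the strip, had 153, 203 and 76.7 CPM in root, while a single count was found in the GFP-positive libraries. The peroxidase *PER64* (*AT5G42180*) had 61.2, 69.3 and 18.4 CPM in root and no count in GFP-positive cells, a difference of at least 280.5-fold. *CASP2*, a relative of *CASP1*, was 126-fold higher in root. In *ESB1*, *CASP1* and *PER64* root replicate 3 was the lowest root library. *MYB36* (*AT5G57620*), the transcription factor that turns on the strip genes, followed the same order with 40.4, 40.9 and 23.7 CPM in root. By contrast, *SCR* (*AT3G54220*), a regulator of endodermal identity that also acts in the leaf bundle sheath, had 31.4, 17.5 and 30.1 CPM in root, against 20.8, 17.3 and 13.3 CPM in GFP-positive cells (log2 fold change 0.62 ± 0.25, SE; FDR = 0.0386), a fold-difference below the limit. *SGN3* (*AT4G20140*), a receptor kinase that monitors the strip, had 38.7, 30.7 and 21.2 CPM in root and 24.6, 20.8 and 29.3 CPM in GFP-positive cells, with overlapping ranges. *SHR* (*AT4G37650*), which acts upstream of *SCR*, was 2.98-fold higher in root (FDR = 1.08e-04).

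Of 17 suberin genes 13 were called higher in root, but 9 of the 17 had under 1 CPM in every root library and the median at the bound was 0.77. The most abundant of the list was *KCS20* (*AT5G43760*), an elongase of very long fatty acids that also serves wax synthesis, with 102, 76.4 and 69.8 CPM in root and 50.7, 60.2 and 65.6 CPM in GFP-positive cells, a fold-difference below the limit. *CYP86A1* (*AT5G58860*), a hydroxylase of suberin fatty acids, had 0.356, 0.126 and 0.116 CPM in root and no count in GFP-positive cells, which is too few for a fold-difference. *GPAT5* (*AT3G11430*), an acyltransferase of the same pathway, had 0.255, 0.314 and 0.9096 CPM in root, against 0.1503, 0.199 and 0.0772 CPM in GFP-positive cells. Its FDR of 0.0384 went above the limit when root replicate 3 (FDR = 0.170) or any 1 GFP-positive library (FDR = 0.0592 to 0.0960) was left out. *FAR4*, *ABCG2* and *ABCG20*, all under 0.2 CPM in root, also lost their calls without 1 library (FDR of 0.0504 to 0.0975 in the fits that lost them). The feruloyl transferase *ASFT* (*AT5G41040*) was clearer, with 6.67, 6.32 and 3.39 CPM in root and 0.551, 0.894 and 0.5405 CPM in GFP-positive cells, and *MYB92* (*AT5G10280*), a suberin regulator, had 5.35, 4.75 and 4.82 CPM in root, against 0, 0 and 0.0772 CPM. The acyltransferase *GPAT7* was 17.1-fold higher in root. *FAR5*, *ABCG6* and *MYB53*, all under 2 CPM, were not called.

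Vascular genes were likewise mostly higher in root. Of 14 xylem and secondary wall genes, 13 were higher (median log2 fold change 5.95, or 5.78 at the bound), and only *FRA8* (*AT2G28110*), a glycosyltransferase of xylan synthesis, was not called. *XCP1* (*AT4G35350*), a cysteine protease that clears dying xylem cells, had 43.7, 66.3 and 40.1 CPM in root libraries, against 0.0501, 0 and 0 CPM in GFP-positive libraries. Its relative *XCP2* was 117-fold higher in root. The secondary wall cellulose synthases *CESA4*, *CESA7* and *CESA8* were 60.3-, 39.99- and 38.2-fold higher in root. Of 11 phloem genes, 7 (63.6%) were higher in root, 1 (9.09%) was lower and 3 were not called. Over all genes tested the shares were 36.7% higher and 26.8% lower. *SUC2* (*AT1G22710*), the sucrose carrier of companion cells, had 47.5, 53.1 and 45.2 CPM in root, against 5.06, 9.68 and 6.26 CPM in GFP-positive cells (log2 fold change 2.79 ± 0.24, SE; FDR = 6.11e-07). *APL*, the transcription factor of phloem identity, the sieve plate callose synthase *CALS7* and *FTIP1*, which exports the flowering protein FT from companion cells, were 6.105-, 5.91- and 11.1-fold higher in root, and *SEOR2*, a filament protein of sieve elements, was not called. *SWEET11* (*AT3G48740*), a sucrose exporter of leaf phloem parenchyma, went the other way, with 0.102, 0.209 and 0.174 CPM in root and 8.12, 17.2 and 7.41 CPM in GFP-positive cells. It was 65.1-fold lower in root (FDR = 2.15e-07), while its relative *SWEET12* was not called. *NEN4*, a nuclease of forming sieve elements, had a log2 fold change of -0.96 ± 0.37 (SE) and became a second phloem gene called lower without root replicate 3 or GFP-positive replicate 3.

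Genes of the root meristem and cap and of the cell cycle were mostly higher in root as well. Of 11 meristem and root cap genes, 10 were higher (median 10.26, or 5.13 at the bound). *PLT1* (*AT3G20840*), a master regulator of the root stem cell niche, had 11.3, 5.104 and 21.3 CPM in root libraries and 0 counts in all GFP-positive libraries. Its root values spanned a wide range, with replicate 3 the highest, the reverse of the order seen for the endodermis genes. The quiescent centre gene *WOX5* (*AT3G11260*) had 5.09, 8.79 and 4.74 CPM in root, and the root cap factor *BRN2* (*AT4G10350*) had 22.6, 25.8 and 14.4 CPM, both with 0 counts in GFP-positive cells. *BRN1*, a relative of *BRN2*, was at least 98.2-fold higher in root, and *SMB*, a cap factor of the same family, and *PLT3* were 122- and 267-fold higher. The signal peptide gene *CLE40* was under 0.5 CPM in all libraries and was not called. Among 16 cell cycle genes, 15 were higher in root with a median log2 fold change of 4.06. The mitotic kinase *CDKB2;1* (*AT1G76540*) had 17.3, 13.9 and 25.9 CPM in root, against 0.802, 0.397 and 0.695 CPM in GFP-positive cells, and the replication factor *CDT1A* (*AT2G31270*) had 27.1, 24.96 and 26.8 CPM, against 1.15, 1.19 and 1.54 CPM. The sliding clamps of replication *PCNA1* and *PCNA2* were 15.7- and 5.11-fold higher in root. *TSO2* (*AT3G27060*), a small subunit of ribonucleotide reductase, had 51.1, 38.5 and 46.9 CPM in root and 44.5, 44.99 and 38.1 CPM in GFP-positive cells, with no difference past the test.

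**Figure D2:**
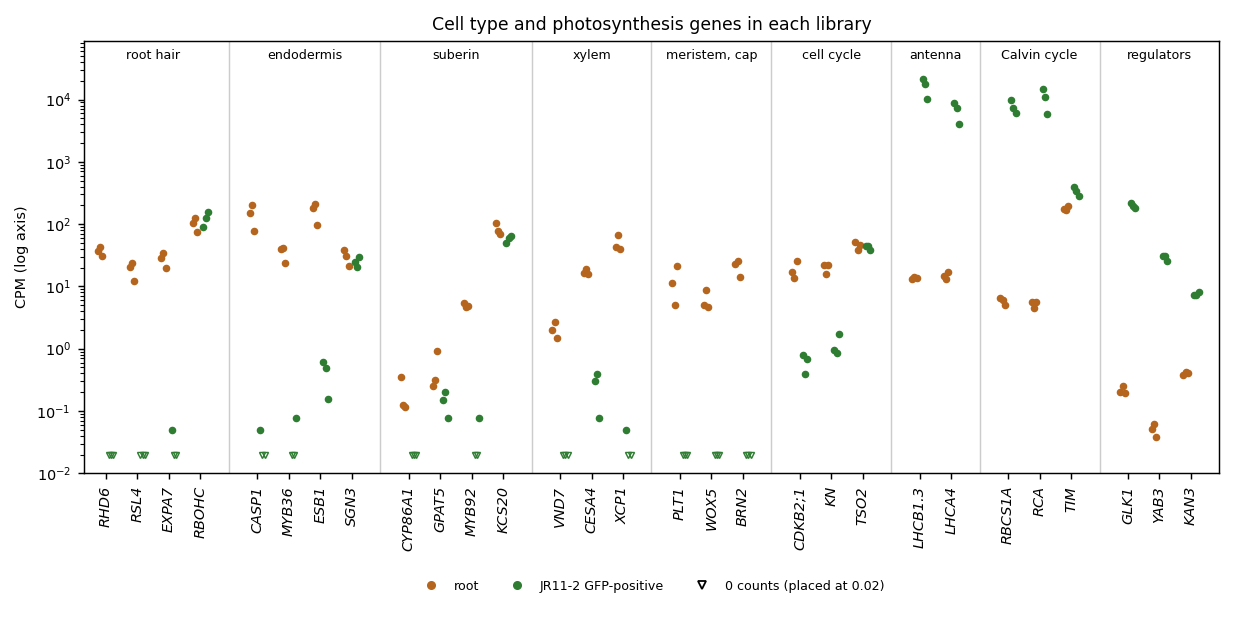
CPM (log axis) of selected root cell type, photosynthesis and leaf polarity genes in each library, with root libraries left of JR11-2 GFP-positive libraries and open triangles for libraries with 0 counts. *RHD6* and *PLT1* have counts in the root libraries alone, whereas *LHCB1.3* stays under 15 CPM in root and reaches 10386 to 21367 CPM in the GFP-positive libraries.

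Markers of leaf epidermis and guard cells were measured for both populations. In the list of leaf epidermis and guard cell genes, 8 of 12 tested (66.7%) were higher in root, 1 (8.33%) was lower and 3 were not called. Over all genes tested the shares were 36.7% higher and 26.8% lower. The summed level of the list was 91.3 to 128.3 CPM in root libraries, against 29.6 to 43.6 CPM in GFP-positive libraries. *PDF1* (*AT2G42840*), an epidermal protein of the shoot and root tip, had 44.99, 33.4 and 37.4 CPM in root, against 0, 0.0497 and 0 CPM in GFP-positive cells. *CER3* (*AT5G57800*), a wax synthesis enzyme, had 20.6, 20.2 and 13.6 CPM in root, against 37.7, 27.8 and 23.5 CPM in GFP-positive cells, where it was the most abundant of the list. The guard cell genes *SLAC1* and *FAMA* had at most 3 counts in any of the 6 libraries and were not tested. The guard cell channel *KAT1* (*AT5G46240*), the 1 gene called lower in root, was under 0.5 CPM in all of them. *MYB60* was among the genes called higher. The wax genes *FDH* and *CER5* were 17.7- and 7.49-fold higher in root, while *CER6* and the guard cell kinase *HT1* were not called. Apart from *CER3*, every tested gene of the list was under 3 CPM in each GFP-positive library. *TGG1* (*AT5G26000*), a myrosinase that also marks guard cells and myrosin idioblasts and stands in another list, was more abundant, with 0.0255, 0.0209 and 0 CPM in root, against 33.8, 85.1 and 29.6 CPM in GFP-positive cells. The part of such cells in the other results was not tested.

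The nuclear genes of photosynthesis were lower in root without exception among the antenna, photorespiration and chlorophyll lists. All 18 light-harvesting antenna genes, which encode the proteins that hold chlorophyll around the photosystems, were lower in root, with a median log2 fold change of -10.36. Their summed level was 69.7 to 77.0 CPM in root libraries, against 44539 to 101029 CPM in GFP-positive libraries. *LHCB1.3* (*AT1G29930*), the most abundant, had 13.2, 14.1 and 13.8 CPM in root and 21367, 17860 and 10386 CPM in GFP-positive cells (log2 fold change -10.24 ± 0.44, SE; FDR = 3.47e-09). GFP-positive replicate 3 was the lowest of its group for 17 of the 18 genes, but for each gene it was above every root library. *LHCB1.4* (*AT2G34430*) differed most, with 1.45, 0.837 and 1.08 CPM in root, against 6944, 6565 and 3458 CPM. *LHCB1.5* and the photosystem I antenna gene *LHCA4*, which were among the 10 genes furthest below GFP-positive cells in CPM, were 1283- and 449.7-fold lower in root. *LHCB4.3* (*AT2G40100*) differed least, with 0.407, 0.335 and 0.426 CPM in root, against 3.11, 1.09 and 2.08 CPM, and was 5.34-fold lower in root. Of these genes *LHCB1.1*, *LHCB2.1* and *LHCB2.2* share over 20% of their 50-base windows with other genes, so their counts are uncertain.

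Calvin cycle genes, which fix CO2 in the stroma, summed to 539.6 to 608 CPM in root, against 25229 to 47288 CPM in GFP-positive cells, and 17 of 18 were lower in root. *RBCS1A* (*AT1G67090*), a small subunit of Rubisco, had 6.54, 6.15 and 5.01 CPM in root and 9994, 7376 and 6186 CPM in GFP-positive cells, and the Rubisco activase *RCA* (*AT2G39730*) had 5.601, 4.498 and 5.65 CPM, against 14766, 10827 and 5848 CPM. *PRK* (*AT1G32060*), which regenerates the CO2 acceptor, was 645-fold lower in root, and the bisphosphatase *SBPASE* (*AT3G55800*) was 827-fold lower. Another small subunit gene, *RBCS3B*, and the plastid aldolases *FBA1* and *FBA2* were 2472-, 1882- and 1700-fold lower. Others differed less. The transketolase *TKL1* (*AT3G60750*) had 306, 261 and 289 CPM in root, against 1526, 1155 and 1076 CPM in GFP-positive cells, and was 4.39-fold lower in root (FDR = 2.39e-06). The plastid triose phosphate isomerase *TIM* (*AT2G21170*) had 175, 172 and 198 CPM in root and 392, 337 and 285 CPM in GFP-positive cells. These values did not overlap, but the fold-difference was 1.86, below the limit.

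Photorespiration recycles the product of the oxygenase reaction of Rubisco. All 12 of its genes were lower in root, with a median log2 fold change of -7.46. Glycolate oxidase *GOX1* (*AT3G14420*) had 0.713, 0.586 and 0.542 CPM in root, against 2220, 1847 and 1234 CPM in GFP-positive cells, and hydroxypyruvate reductase *HPR1* (*AT1G68010*) had 0.611, 0.858 and 0.832 CPM, against 1233, 1023 and 736 CPM. The aminotransferase *GGT1* and the serine hydroxymethyltransferase *SHM1* were 162- and 347-fold lower in root. The glycine decarboxylase subunits *GLDP1* and *GLDT* were 32.2- and 6.49-fold lower. Glycerate kinase *GLYK* (*AT1G80380*), which closes the cycle, differed least, with 37.5, 51.2 and 55.95 CPM in root, against 313, 259 and 286 CPM in GFP-positive cells. The glycolate phosphatase *PGLP1* shares 94.1% of its windows with another gene and its count says little.

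All 17 chlorophyll synthesis genes and regulators were lower in root (median -5.51). *CHLH* (*AT5G13630*), a subunit of the magnesium chelatase that commits porphyrin to chlorophyll, had 14.2, 7.64 and 12.95 CPM in root, against 2832, 2049 and 1048 CPM in GFP-positive cells. The other chelatase subunits, *CHLI1* and *CHLD*, were 31.1- and 30.2-fold lower in root, and the later enzymes *CRD1* and *PORB* were 223- and 225-fold lower. Among the transcription factors that promote chloroplast development, *GLK1* (*AT2G20570*) had 0.204, 0.251 and 0.194 CPM in root and 219.8, 194 and 178 CPM in GFP-positive cells (log2 fold change -9.81 ± 0.25, SE; FDR = 6.91e-10). Its paralogue *GLK2* (*AT5G44190*) had 3.26, 2.43 and 2.77 CPM in root, against 164, 136 and 67.8 CPM, so that *GLK2* was 43.5-fold and *GLK1* 898-fold lower in root. The GATA factors *GNC* and *CGA1*, which act beside them, were 37.4- and 36.9-fold lower.

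For 13 pairs of genes, 1 chosen as the root-type or general form and 1 as the leaf form, the pair was compared within each library as the log2 ratio of the root-type to the leaf-type gene, each per kb of exon. Most pairs encode the same enzyme, but sucrose synthase and sucrose phosphate synthase are different enzymes of sucrose metabolism. The leaf-type gene was lower in root in all 13 pairs, and the root-type gene was higher in 8 of them. Over all genes tested 26.8% were lower and 36.7% higher in root. The pairs were chosen with earlier results of these data known, so these counts are not independent evidence of a switch between forms. *HEMA2*, *CAT3* and *GLN1;2*, chosen as root-type, were lower in root and go against that name. The ratio was above 0 in all root libraries for 11 pairs and below 0 in all GFP-positive libraries with a ratio for 11 pairs, and it changed sign between the populations in 10. With 3 against 3 libraries the exact permutation test of a pair cannot give less than 0.1, so the ratios are given as values.

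Both genes of each electron carrier pair were called, in opposite directions. *FD3* (*AT2G27510*), the ferredoxin of non-green plastids, had 225, 264 and 196 CPM in root, against 18.4, 29.2 and 32.3 CPM in GFP-positive cells, while the leaf ferredoxin *FD2* (*AT1G60950*) had 9.78, 7.22 and 9.54 CPM in root, against 1341, 921 and 656 CPM. The log2 ratio of *FD3* to *FD2* was 4.52, 5.18 and 4.36 in root libraries and -6.19, -4.98 and -4.35 in GFP-positive libraries. The root ferredoxin-NADP reductases *RFNR1* and *RFNR2*, which run electrons from NADPH to ferredoxin, were higher in root with log2 fold changes of 2.85 and 5.97, and the leaf reductases *FNR1* and *FNR2* were lower with -8.16 and -10.26. *RFNR2* (*AT1G30510*) had 342, 348 and 201 CPM in root, against 5.21, 5.02 and 3.86 CPM in GFP-positive cells, and *FNR2* (*AT1G20020*) had 0.687, 0.6903 and 1.03 CPM, against 1072, 931 and 982 CPM. The populations did not overlap for any of these 4 genes, as for 80.1% of all genes tested.

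Both genes were also called in opposite directions in 5 pairs of carbon enzymes. *GAPCP1* (*AT1G79530*), the plastid glycolytic glyceraldehyde phosphate dehydrogenase, had 429, 421 and 439 CPM in root, against 0.852, 0.596 and 0.232 CPM in GFP-positive cells (log2 fold change 9.49), and *GAPA*, its Calvin cycle counterpart, was 560.2-fold lower in root. *PPC3* (*AT3G14940*), a phosphoenolpyruvate carboxylase of roots, had 591, 629.9 and 454 CPM in root, against 1.202, 1.49 and 1.24 CPM, while *PPC2* (*AT2G42600*) had 10.5, 6.32 and 10.1 CPM in root, against 724, 519 and 401 CPM. Sucrose synthase *SUS1* (*AT5G20830*), which cleaves incoming sucrose, was higher in root (log2 fold change 3.69), and sucrose phosphate synthase *SPS4F* (*AT4G10120*), which makes sucrose in leaves, was lower (-7.89). *GOX3* (*AT4G18360*), a relative of glycolate oxidase with lactate as substrate, had 20.1, 17.6 and 19.6 CPM in root, against 0.1503, 0.199 and 0 CPM in GFP-positive cells. Serine hydroxymethyltransferase *SHM2* (*AT5G26780*), a relative of *SHM1*, had 97.6, 95.6 and 66.5 CPM in root, against 26.6, 21.6 and 23.6 CPM in GFP-positive cells (log2 fold change 1.85).

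In 2 other pairs the leaf-type gene alone was called. *GLT1* (*AT5G53460*), the NADH-dependent glutamate synthase, had 518, 353 and 484 CPM in root and 646, 607 and 538 CPM in GFP-positive cells and was not called (FDR = 0.0916), while the ferredoxin-dependent *GLU1* (*AT5G04140*) was 2152-fold lower in root. *G6PD2* (*AT5G13110*), a plastid glucose-6-phosphate dehydrogenase, had 77.4, 74.1 and 63.2 CPM in root, against 41.7, 38.5 and 28.3 CPM, without overlap and with a log2 fold change of 0.98 (FDR = 4.36e-04), just under the limit on fold-difference, which it passed in several alternatives. Its partner *G6PD1* was lower in root (log2 fold change -6.82). For 3 pairs both genes were lower in root. The second glutamyl-tRNA reductase gene, *HEMA2* (*AT1G09940*), had 100.5, 132 and 93.97 CPM in root, against 1329, 1408 and 1342 CPM in GFP-positive cells, and its ratio to *HEMA1* was above 0 in both populations. *CAT3* (*AT1G20620*), a catalase, had 84.3, 42.4 and 75.8 CPM in root, against 2377, 3004 and 3485 CPM, so that its ratio to *CAT2* was higher in GFP-positive cells. The cytosolic glutamine synthetase *GLN1;2* (*AT1G66200*) was lower in root (log2 fold change -1.64) by less than the plastid enzyme *GLN2* (-3.27).

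**Figure D3:**
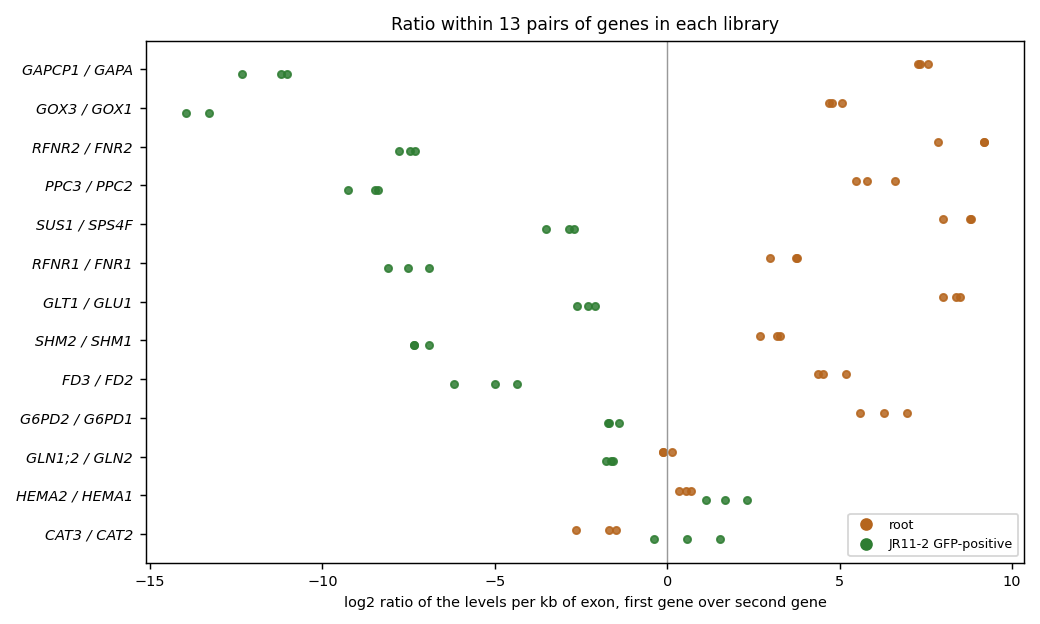
Log2 ratio of the root-type to the leaf-type gene (CPM per kb of exon, x axis) in each library for 13 gene pairs (y axis), with root libraries drawn above JR11-2 GFP-positive libraries. In 10 pairs every root library lies right of 0 and every GFP-positive library with a ratio lies left of it, and *GOX3* to *GOX1* has 2 GFP-positive points because 1 library had 0 counts of *GOX3*.

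Of 14 genes that set the upper and lower side of a leaf, 6 (42.9%) were lower in root, 2 (14.3%) were higher and 6 were not called (median log2 fold change -0.17). Over all genes tested 26.8% were lower and 36.7% higher. The *YABBY* factors of the list, which mark the lower side of leaf primordia, were all lower in root. *YAB3* (*AT4G00180*) had 0.0509, 0.0628 and 0.0387 CPM in root, against 31.1, 30.9 and 25.2 CPM in GFP-positive cells, *YAB1* (*AT2G45190*) had 0.0255, 0.0209 and 0 CPM, against 25, 21.2 and 12.8 CPM, and *YAB5* (*AT2G26580*) had 0 counts in all root libraries, against 7.46, 6.16 and 6.87 CPM. These groups lie far apart. Of the *KANADI* factors, which also specify the lower side, *KAN3* (*AT4G17695*) was 18.6-fold lower in root, with 0.382, 0.418 and 0.406 CPM in root, against 7.16, 7.4 and 8.11 CPM, whereas *KAN1* and *KAN2* were not called. *ETT*, an auxin response factor of the lower side, was 5.897-fold lower in root, and its relative *ARF4* was not called. Of the class III HD-ZIP factors of the upper side, *REV* (*AT5G60690*) was 3.35-fold higher in root, where these factors pattern the xylem, and *PHB* and *PHV* were not called. *AS2*, a factor of the upper side, was at least 8.33-fold higher in root, and its partner *AS1* was not called. Without root replicate 2, with the genes tested kept, 4 genes were called higher, as *KAN1* (log2 fold change 1.045) and *PHB* (1.09) passed the limit on fold-difference.

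Whether the GFP-positive cells stand apart from the other green cells of the same leaves was tested within pools D, E and F. Among 20031 genes, 432 or 2.16% were called, 1.44% as higher and 0.714% as lower in GFP-positive cells, with a median log2 fold change of 0.01 (GFP-positive over GFP-negative). This comparison shares the GFP-positive libraries with that against root. Of 13 polarity genes tested here, 2 were called, both higher in GFP-positive cells, *YAB3* (log2 fold change 1.78, FDR = 5.95e-11) and *KAN3* (2.52, FDR = 4.70e-09). The median log2 fold change of these polarity genes was 0.45. *YAB5*, which was not called, had 5.67 ± 0.53 CPM in GFP-positive and 8.02 ± 0.41 CPM in GFP-negative cells (SD, n = 3 each, scaled over 15 libraries). *SULTR2;2*, a marker of bundle sheath and veins, and *CORI3*, *THA2* and *AT1G12010* were all higher in GFP-positive than in GFP-negative cells. The study had placed the *CORI3* reporter in lower spongy mesophyll and bundle sheath. It placed those of *THA2* and *AT1G12010* in bundle sheath, with other vein cells possible. The part of bundle sheath cells in the GFP-positive gate was not tested. The genes with reporters had been picked from data of the same study and are not independent evidence of the label. The sulphate transporter *SULTR2;2* (*AT1G77990*) had 1.35, 1.21 and 0.716 CPM in root, against 56.6, 35.2 and 31.9 CPM in GFP-positive cells, and *CORI3* (*AT4G23600*), a cystine lyase, had 0.153, 0.146 and 0.174 CPM, against 331, 255 and 273 CPM. The threonine aldolase *THA2* was 2.83-fold lower in root. *AT1G12010*, an oxidase of the 2OG family, was the exception, with 48.3, 22.3 and 23.4 CPM in root and 26.3, 21.5 and 20.8 CPM in GFP-positive cells, which overlapped.

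Transport genes differed by nutrient and by family member. In the nitrogen list, 9 of 12 genes could be tested, of which 3 (33.3%) were higher and 5 (55.6%) lower in root. Over all genes tested the shares were 36.7% higher and 26.8% lower. *NRT1.1* (*AT1G12110*), the dual-affinity nitrate transporter and sensor, had 157, 149 and 95.9 CPM in root, against 57.9, 53.8 and 23.9 CPM in GFP-positive cells, and was 2.95-fold higher in root (FDR = 6.30e-04). Ammonium transporters went both ways. *AMT1;3* (*AT3G24300*) had 11.7, 9.39 and 8.98 CPM in root and 0 counts in GFP-positive cells, a difference of at least 56.7-fold. *AMT1;1* (*AT4G13510*) had 55.02, 55.8 and 62.04 CPM in root, against 229.6, 221 and 283 CPM in GFP-positive cells. *AMT2;1* (*AT2G38290*) had 13.95, 20.2 and 22.9 CPM in root, against 254, 317 and 372 CPM, and was 16.5-fold lower in root. *AMT1;2* (*AT1G64780*), which is known from the root endodermis and cortex, had 0.2801, 0.209 and 0.387 CPM in root, against 35.4, 23.7 and 11.2 CPM in GFP-positive cells. The ranges of the 2 populations were separate for each of these transporters, as for 80.1% of all genes tested. Nitrate reductase *NIA2* (*AT1G37130*) was 7.26-fold lower in root, while *NIA1* was not called. *NRT1.5*, which loads nitrate into the xylem, was 4.49-fold higher in root, with overlapping ranges. The high-affinity nitrate transporter *NRT2.1* had 0 counts in all root libraries and 4, 6 and 1 counts in the GFP-positive libraries.

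Of 9 iron uptake genes, 6 could be tested and all 6 were higher in root (median log2 fold change 6.59, or 5.30 at the bound). *FIT* (*AT2G28160*), the transcription factor of the iron deficiency response, had 16.2, 20.6 and 17.8 CPM in root, against 0.351, 0.248 and 0.232 CPM in GFP-positive cells. Coumarins, which are secreted to dissolve iron, are made by *F6'H1* (*AT3G13610*), which had 33.3, 29.8 and 23.2 CPM in root and 0 counts in GFP-positive cells. The ABC transporter *ABCG37* (*AT3G53480*), which exports coumarins, had 192, 198 and 196 CPM in root, against 1.15, 1.04 and 1.93 CPM. The proton pump *AHA2* (*AT4G30190*) had 729.7, 719 and 517 CPM in root, against 116, 137 and 151 CPM, and was 4.86-fold higher (FDR = 1.30e-06). The iron transporter *IRT1* itself had 7, 1 and 22 counts in the root libraries and 0 in the GFP-positive libraries, and it did not pass the filter on low counts.

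For phosphate, sulphate, potassium and boron, 12 of 14 genes could be tested and 9 were higher in root (median 3.72, or 2.94 at the bound). *SULTR1;2* (*AT1G78000*), the main sulphate uptake transporter, had 62.3, 66.5 and 49.4 CPM in root, against 8.57, 10.3 and 11.3 CPM in GFP-positive cells. The boric acid channel *NIP5;1* (*AT4G10380*) had 62.1, 65.9 and 50.8 CPM, against 0.351, 0.596 and 2.16 CPM, and the potassium channel *AKT1* (*AT2G26650*) had 33.7, 35.9 and 23.2 CPM, against 2.66, 5.02 and 6.64 CPM. *SULTR2;1* (*AT5G10180*), a low-affinity sulphate transporter of the vasculature, was 13.8-fold lower in root, and *SKOR* and *BOR1*, which load the xylem, were not called. *PHO1*, which exports phosphate to the xylem, was 33.8-fold higher in root. The phosphate transporter *PHT1;1* was 24.5-fold higher in root but shares 42.4% of its windows with other genes.

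Aquaporins were abundant in both populations, with sums of 4809 to 9629 CPM in root, against 2386 to 3874 CPM in GFP-positive cells. Of 19 genes, 11 (57.9%) were higher in root, 1 (5.26%) was lower and 7 were not called (median log2 fold change 1.13). Over all genes tested the shares were 36.7% higher and 26.8% lower. Some members were nearly restricted to one population. The tonoplast aquaporin *TIP4;1* (*AT2G25810*) had 137, 162 and 89.04 CPM in root and 0 counts in GFP-positive cells, at least 730.4-fold higher in root, and *TIP2;3* (*AT5G47450*) had 61.05, 110.3 and 51.5 CPM in root, against 0.301, 0.348 and 0.618 CPM. The plasma membrane aquaporin *PIP2;7* (*AT4G35100*) had 1033, 1189 and 634 CPM in root, against 115, 101 and 42.2 CPM, whereas *PIP2;1* (*AT3G53420*) had 652, 795 and 407 CPM in root and 609.9, 492 and 315 CPM in GFP-positive cells and was not called. The abundant tonoplast aquaporin *TIP2;1* was 2.98-fold higher in root, and *TIP1;2* was not called. *PIP2;6* (*AT2G39010*) alone was lower in root, with 24.2, 31.1 and 10.97 CPM in root, against 211, 216 and 201 CPM in GFP-positive cells (log2 fold change -3.24 ± 0.32, SE; FDR = 2.35e-06). For 17 of the 19 aquaporins root replicate 3 was the lowest root library. The calls for *PIP1;2* and *PIP2;2*, 2.15- and 2.18-fold higher in root, were lost without root replicate 2 (log2 fold changes of 0.81 and 0.79) or without GFP-positive replicate 3 (0.95 and 0.97). *PIP1;5*, with a log2 fold change of -0.93 ± 0.28 (SE), was just under the limit on fold-difference and became a second gene called lower without root replicate 1, root replicate 2 or GFP-positive replicate 3.

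**Figure D4:**
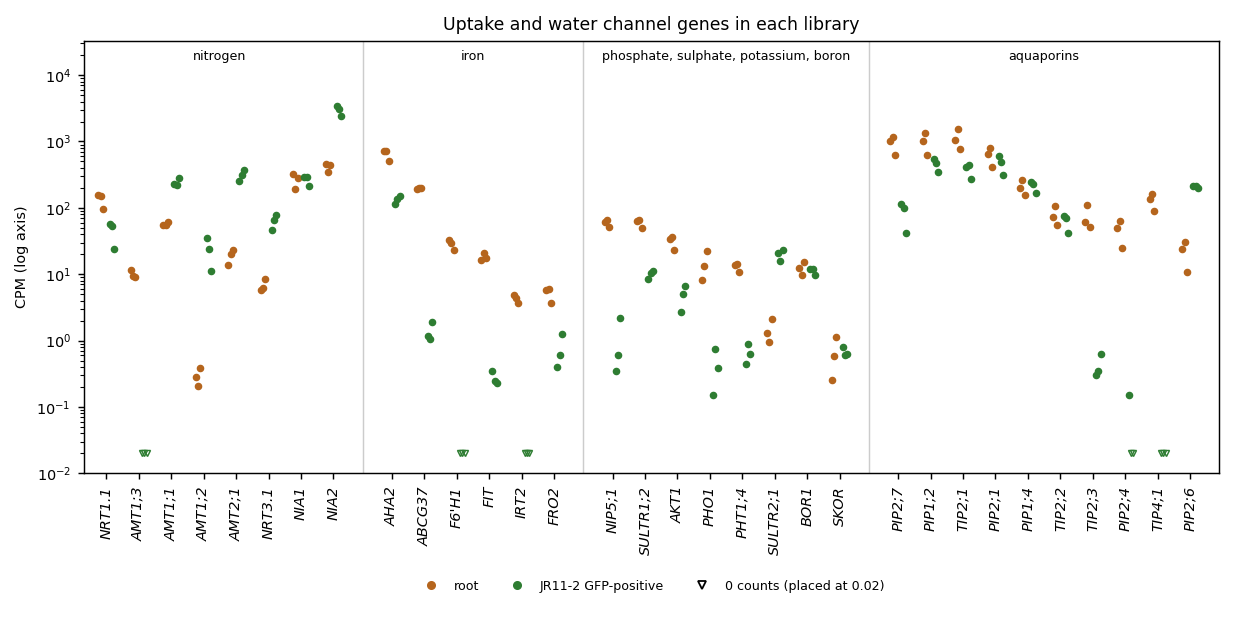
CPM (log axis) of nitrogen, iron, other ion and water transport genes in each library, root before JR11-2 GFP-positive, with open triangles for libraries with 0 counts. *AMT1;3* and *TIP4;1* have counts in root libraries alone, and *AMT2;1* and *PIP2;6* lie higher in every GFP-positive library than in any root library.

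Aliphatic glucosinolates are made from methionine, and 7 of their 9 genes were lower in root (median log2 fold change -5.54, or -4.55 at the bound), while *MAM3* and *CYP79F2* were not called. *CYP79F1* (*AT1G16410*), which makes the aldoximes of the pathway, had 0 counts in all root libraries, against 45.4, 17.7 and 26.2 CPM in GFP-positive cells, a level at least 453-fold lower in root. *MAM1* (*AT5G23010*), which lengthens the methionine chain, had 1.02, 1.17 and 2.903 CPM in root, against 209, 106 and 163 CPM, and the regulator *MYB28* (*AT5G61420*) had 2.495, 2.87 and 3.06 CPM, against 30.01, 24.04 and 26.9 CPM. *CYP83A1*, which acts after *CYP79F1*, was 66.2-fold lower in root. The same 7 genes were higher in GFP-positive than in GFP-negative cells of the same pools, with log2 fold changes of 1.07 for *MYB28* to 2.51 for *BCAT4*. *CYP79F1*, *MAM1*, *BCAT4* and *CYP83A1* had likewise been picked for reporters from data of the same study. Their reporters were placed in bundle sheath, with other vein cells possible. For *CYP79F1* the study also described reporter activity in vein cells that was only weak in bundle sheath. Of 13 genes of the indolic glucosinolates, made from tryptophan, 4 were higher and 4 lower in root, 30.8% each way, near the shares of 36.7% and 26.8% over all genes tested. *CYP81F4* (*AT4G37410*), which hydroxylates the indole ring, had 66.6, 43.6 and 75.7 CPM in root and 0 counts in GFP-positive cells, while *CYP81F2* (*AT5G57220*), its relative in leaf defence, had 1.45, 0.879 and 2.24 CPM in root, against 46.3, 74.5 and 117 CPM. The early enzyme *CYP83B1* (*AT4G31500*) and the C-S lyase *SUR1* were 5.42- and 4.05-fold lower in root, the methyltransferase *IGMT5* was 9.53-fold higher, and *CYP79B2*, *UGT74B1*, *SOT16*, *MYB34* and *MYB51* were not called. The call for *CYP79B3*, 2.04-fold lower in root, was lost without root replicate 2 (log2 fold change -0.89) or without GFP-positive replicate 1 (-0.76).

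The beta-glucosidases that activate glucosinolates and related compounds were exchanged. *TGG1* (*AT5G26000*) and *TGG2* (*AT5G25980*), the classical myrosinases of leaves, were lower in root. *TGG1* had 0.0255, 0.0209 and 0 CPM in root, against 33.8, 85.1 and 29.6 CPM in GFP-positive cells, 2 counts in all in the root libraries. The glucosidases of ER bodies, endoplasmic reticulum compartments of roots and seedlings, were higher in root: *PYK10* (*AT3G09260*) had 1704, 1592 and 1029 CPM in root, against 0.501, 0.497 and 0.5405 CPM in GFP-positive cells (log2 fold change 11.45 ± 0.37, SE; FDR = 9.05e-10). *BGLU21* (*AT1G66270*) had 1380, 1342 and 991 CPM in root, against 0.451, 0 and 0 CPM, and *BGLU22* (*AT1G66280*) had 299, 307 and 281 CPM, against 0 counts, at least 1669-fold higher in root. *PBP1*, a lectin that binds *PYK10*, was 547-fold higher. *NAI1* (*AT2G22770*), the transcription factor that forms ER bodies, had 33.6, 38.1 and 29.9 CPM in root, against 0.0501, 0.0497 and 0.0772 CPM, and their membrane protein *NAI2* was 582-fold higher. For all 6 ER body genes of the list the populations did not overlap, which held for 80.1% of all genes tested.

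All 9 tested genes of the triterpene clusters, neighbouring genes that together make thalianol, marneral and arabidiol derivatives, were higher in root (median 10.61, or 6.54 at the bound), with sums of 99.5 to 123 CPM in root, against 0.0772 to 0.150 CPM in GFP-positive cells. *THAS1* (*AT5G48010*), the thalianol synthase, had 19.6, 18.2 and 17.8 CPM in root, and the desaturase *THAD* (*AT5G47990*) had 36.4, 27.8 and 30 CPM, both with 0 counts in all GFP-positive libraries. *CYP71A16* (*AT5G42590*), which oxidizes marneral products, had 32.8, 43.7 and 23.7 CPM in root and 0 counts in GFP-positive cells. The thalianol hydroxylase *THAH* was at least 39.8-fold higher in root.

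Of 21 phenylpropanoid genes 8 were higher in root, 5 lower and 8 not called (median log2 fold change -0.20), and the shares of 38.1% and 23.8% are near those over all genes tested. With all 27 libraries fitted together 8 were called lower. *PAL1* (*AT2G37040*), a phenylalanine ammonia lyase at the entry, had 402, 366 and 257 CPM in root, against 25.6, 17.1 and 21.7 CPM in GFP-positive cells, and *PAL4* (*AT3G10340*) had 8.096, 8.89 and 9.02 CPM, against 0.1002, 0.149 and 0.0772 CPM. *PAL2* (*AT3G53260*) had 109, 99.1 and 65.8 CPM in root and 201, 178 and 144 CPM in GFP-positive cells, below the limit on fold-difference. The next enzyme of the pathway, *C4H*, was 2.396-fold higher in root, and the lignin enzymes *CCoAOMT1* and *CAD4* were 5.56- and 4.35-fold higher. Coumarate ligases went both ways, with *4CL2* 16.4-fold higher and *4CL1* 5.76-fold lower in root. *SNG1* (*AT2G22990*), which makes the sunscreen sinapoylmalate in leaves, had 0.127, 0.126 and 0.155 CPM in root, against 255, 184 and 191 CPM (log2 fold change -10.54 ± 0.29, SE; FDR = 6.91e-10), and the ferulate hydroxylase *FAH1* (*AT4G36220*), which acts before it, had 1.02, 0.6903 and 1.28 CPM, against 29.9, 32.98 and 35.1 CPM.

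Flavonol genes were higher in root. Of 10 flavonoid genes 8 were higher and 1 lower in root (median 5.94), with sums of 787 to 1476 CPM in root, against 7.75 to 8.47 CPM in GFP-positive cells. Chalcone synthase *CHS* (*AT5G13930*) had 829, 663 and 404 CPM in root, against 1.002, 0.149 and 0.772 CPM in GFP-positive cells (log2 fold change 9.97 ± 0.52, SE; FDR = 1.14e-08). Flavonol synthase *FLS1* (*AT5G08640*) had 222, 206 and 113 CPM, against 0.401, 0.397 and 0.309 CPM, and *MYB12* (*AT2G47460*), the flavonol regulator of roots, had 90.1, 102 and 58.7 CPM, against 0.0501, 0.149 and 0 CPM. Flavanone hydroxylase *F3H* was 52.1-fold higher in root. The anthocyanin branch was low in both populations. *LDOX* (*AT4G22880*) had 0.127, 0.377 and 0.3096 CPM in root, against 1.202, 1.89 and 1.85 CPM in GFP-positive cells, and *DFR* (*AT5G42800*) had 0.0509, 0.732 and 0.387 CPM in root and 0, 0 and 1.85 CPM in GFP-positive cells, with counts in a single GFP-positive library.

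Auxin carriers were mostly higher in root, with 6 of 10 tested genes (60%) higher, none lower and 4 not called (median 3.06). Over all genes tested the shares were 36.7% higher and 26.8% lower. *PIN2* (*AT5G57090*), the efflux carrier of root epidermis and cortex that serves gravitropism, had 153, 123 and 153 CPM in root, against 0.1002, 0 and 0.0772 CPM in GFP-positive cells. The influx carriers *AUX1* (*AT2G38120*) and *LAX3* (*AT1G77690*) were 47.9- and 100.3-fold higher in root, with 117, 120.3 and 96.7 CPM of *AUX1* in root, against 1.85, 2.33 and 2.86 CPM. *PIN3*, *PIN4* and *PIN7*, which act in both organs, were not called, nor was *PIN6*, under 0.3 CPM in all libraries, and *PIN7* (*AT1G23080*) had 34.3, 34.3 and 29.1 CPM in root, against 59.3, 62.5 and 54.8 CPM, separate ranges with a fold-difference of 1.81. Of 10 type-A response regulators, early targets of cytokinin that damp its signal, 5 (50%) were higher and 2 (20%) lower in root. These shares are not far from the 36.7% and 26.8% over all genes tested. *ARR5* (*AT3G48100*) had 117, 92.95 and 94.5 CPM in root, against 21.5, 15.1 and 33.7 CPM in GFP-positive cells, and *ARR3* (*AT1G59940*) had 42.6, 53.5 and 25.95 CPM, against 0.2004, 0.497 and 0.5405 CPM, whereas *ARR7* (*AT1G19050*) had 11.9, 10 and 12.3 CPM in root, against 34.3, 40.8 and 36.6 CPM, and *ARR16* was 43.4-fold lower in root. *ARR8* was 7.62-fold higher, and *ARR4*, with 103, 104 and 84.1 CPM in root and 60.7, 57.8 and 56.3 CPM in GFP-positive cells, *ARR6* and *ARR15* were not called.

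Jasmonate synthesis and wound response genes were far lower in root. Both populations were made without inhibitors, and whether root and leaf were wounded alike was not tested. Of 22 genes 17 were lower, 2 higher and 3 not called (median log2 fold change -3.62). Their sum was 1899 to 2744 CPM in root libraries, against 36868 to 38847 CPM in GFP-positive libraries. *LOX3* (*AT1G17420*), a lipoxygenase induced by wounding, had 53.8, 62.05 and 62.6 CPM in root, against 6963, 7081 and 5537 CPM in GFP-positive cells, and allene oxide synthase *AOS* (*AT5G42650*) had 178, 189 and 116 CPM, against 7466, 7008 and 6169 CPM (log2 fold change -5.42 ± 0.31, SE; FDR = 2.14e-08). The allene oxide cyclases *AOC1* and *AOC2*, which act after *AOS*, were 65.3- and 46.3-fold lower in root. *LOX2* (*AT3G45140*), the plastid lipoxygenase of leaves, differed most, with 0.153, 0.2301 and 0.213 CPM in root, against 1419, 956 and 845 CPM. The repressors of the pathway differed by member. *JAZ1* (*AT1G19180*) had 448, 544 and 309.6 CPM in root, against 1381, 1533 and 1477 CPM, and was 3.37-fold lower in root, *JAZ6* (*AT1G72450*) was 17.4-fold lower, and *JAZ2*, *JAZ7* and *JAZ8* were not called. The early wound and stress factors *WRKY40* (*AT1G80840*) and *ZAT10* (*AT1G27730*) were 15.9- and 12.3-fold lower in root. The vegetative storage protein *VSP2* (*AT5G24770*), a late target of jasmonate, was higher in root, with 9.7, 12.9 and 10.1 CPM, against 1.904, 0.0993 and 0.5405 CPM in GFP-positive cells (FDR = 1.08e-04), as was its relative *VSP1*, with 1.22, 1.84 and 1.03 CPM in root, against 0.451, 0 and 0.0772 CPM. The sort, which the labels give for the leaf cells and not for root, cannot be told apart from the organ here. *JAZ10*, called 2.26-fold lower in root, fell under the limit on fold-difference without GFP-positive replicate 3 (log2 fold change -0.94).

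The same sums were set beside those of the other leaf populations made without inhibitors, scaled over 15 libraries. These were the GFP-negative cells of JR11-2, and the palisade and the remaining green (reference) cells of a line with a fluorescent reporter under the *IQD22* promoter. The comparisons share the root libraries. The jasmonate and wound list summed to 1881 ± 432 CPM in root, against 31634 ± 299 in JR11-2 GFP-positive, 28967 ± 1182 in JR11-2 GFP-negative, 30415 ± 7382 in *IQD22* palisade and 34357 ± 2943 in *IQD22* reference cells (SD, n = 3 each). All leaf populations were thus above root in this list. The aliphatic glucosinolate list differed among leaf populations, with 12.7 ± 4.95 CPM in root, against 352 ± 100 in GFP-positive, 96.7 ± 18.3 in GFP-negative, 11.7 ± 6.98 in palisade and 623 ± 90.2 in *IQD22* reference cells. The ranges of the root and the palisade libraries overlapped for this list. The flavonoid list was 995 ± 308 CPM in root and between 6.58 and 15.0 CPM on average in the 4 leaf populations. The myrosinase and ER body list was 3357 ± 691 CPM in root, against means of 11.4 to 94.8 CPM in leaf populations. This sum joins genes that went opposite ways. *TGG1* had means of 7.98 to 74.2 CPM in the leaf populations and 0.0131 CPM in root. *PYK10* had means of 0.277 to 0.783 CPM in the leaf populations and 1216 CPM in root.

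**Figure D5:**
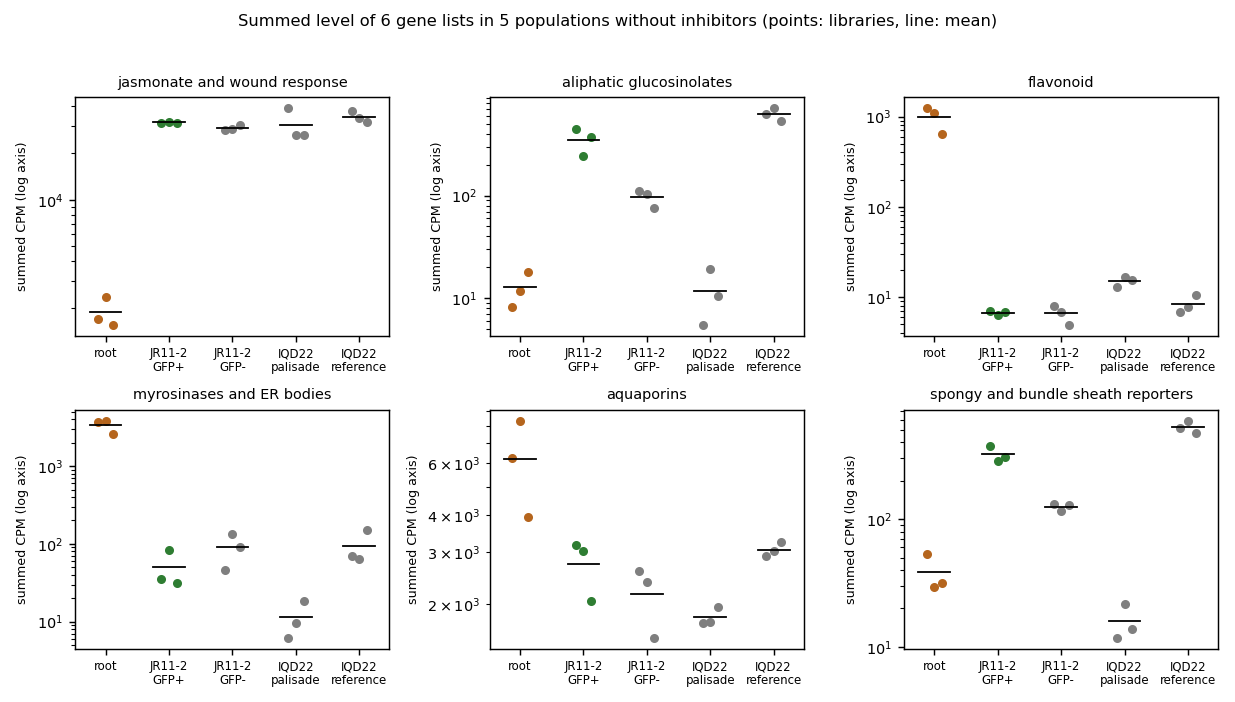
Summed CPM (log axis) of 6 gene lists in each library of 5 populations made without inhibitors, in the order root, JR11-2 GFP-positive, JR11-2 GFP-negative, *IQD22* palisade and *IQD22* reference. Jasmonate and wound genes are low in root alone, and aliphatic glucosinolate genes are low in root and in *IQD22* palisade libraries.

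Outside the lists, genes with the largest fold changes and with the largest differences in level were taken by rule. The genes highest in root over GFP-positive cells all had 0 counts in the GFP-positive libraries. *AT3G28550*, an extensin-like wall protein, had 428, 192 and 249.9 CPM in root and was at least 1638-fold higher. The lower bound for *NLM1*, an aquaporin-like channel for arsenite, was 1442-fold with 279, 345 and 142 CPM in root, and that for the subtilase *SBT4.12* was 797-fold with 159.9, 156 and 107 CPM. *AGP13*, an arabinogalactan protein, and the myrosinase-binding protein *MLP-300B* reached 118, 159.8 and 74.04 CPM and 237, 238 and 98.6 CPM in root. On the leaf side, *AT1G04350*, an oxygenase of the 2OG family, had 0 counts in root and 107, 81 and 66.95 CPM in GFP-positive cells, and *BBX16*, a B-box factor, had 0 counts in root and 94.7, 76.2 and 30.4 CPM in GFP-positive cells. The defensin *PDF1.2*, which ethylene and jasmonate induce, had 0 counts in root and 18.1, 43.6 and 21.8 CPM in GFP-positive cells. The receptor-like kinase *AT1G51805* had 0.0255, 0.0628 and 0.0194 CPM in root, against 484, 502 and 528 CPM in GFP-positive cells.

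By difference in level, 2 genes of the methyl cycle were among the 3 with the largest excess in root. *HOG1*, which hydrolyses S-adenosylhomocysteine, had 3218, 2520 and 3279 CPM in root, against 404, 361 and 348 CPM in GFP-positive cells, and *ATMS1*, a methionine synthase, had 3157, 2499 and 2931 CPM, against 949, 841 and 815 CPM. Both genes were abundant in the leaf cells too and were 8.099- and 3.296-fold higher in root. The cytosolic glycolytic enzymes *FBA8* and *GAPC2* were 6.86- and 2.66-fold higher in root, and the mitochondrial ADP/ATP carrier *AAC1* was 4.899-fold higher. *GAD*, a glutamate decarboxylase of roots, had 1255, 1337 and 861 CPM in root, against 1.55, 3.72 and 5.097 CPM, *AT1G52070*, a lectin-like protein, had 1442, 1518 and 753 CPM, against 0.2505, 0.0497 and 0 CPM, and the dehydrin *LTI30* had 1342, 1836 and 1116 CPM, against 78.5, 124 and 89.04 CPM. Among the genes with the largest deficit in root, beside the antenna and Rubisco genes, was the transporter *PEN3*, which exports indolic defence compounds. It had 339, 313 and 341 CPM in root, against 12412, 12316 and 12481 CPM in GFP-positive cells (37.5-fold lower in root, FDR = 1.27e-08). The heat shock protein gene *AT3G09440* had 799, 941 and 1017 CPM in root, against 7651, 8338 and 6608 CPM. The pseudogene *AT1G79245* was also among these genes, with 226, 271 and 681 CPM in root, against 6470, 6007 and 7915 CPM in GFP-positive cells.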

How the data were processed

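Protoplast mRNA of 3 root and 3 JR11-2 GFP-positive libraries was compared. Per the labels and the study's methods, the authors called bases with CASAVA 1.8.2, aligned strand-specific, single-end reads to TAIR10 with TopHat 2.0.9 and counted them per gene with HTSeq 0.6.1, which drops reads that map to several places, and they deposited unnormalized counts. Of 33602 genes, 133 chloroplast and 146 mitochondrial genes were left out and 33323 nuclear genes kept. Symbols and exon lengths came from the TAIR10.1 annotation, which holds 32835 of them. It was not used for coordinates.

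Genes reaching 2 counts in 3 or more of the 6 libraries were tested, unpaired, by the quasi-likelihood F-test of edgeR 4.0.16 (R 4.3.3) on TMM-scaled libraries with Benjamini-Hochberg adjustment, at an FDR under 0.05 and a fold-difference over 2. The SE is the log2 fold change over the square root of F and is approximate. GFP-positive and GFP-negative cells were compared with the pool as a block. Tested on simulated data, the fit recovered 99% of 200 genes changed by 4-fold, with 4 false calls of 22226 genes. Only these 200 genes differed there, up or down at random, whereas 63.5% of genes were called in the data. The simulation therefore cannot test scaling error, or false calls that come from it, under so large a difference. A fold-difference against a group with no counts used a floor of 3 counts per library. Sums, ratios and exact permutation tests used Python 3.11.15 with pandas 2.3.3, numpy 2.4.6 and scipy 1.17.1. Genes were marked uncertain where over 20% of their 50-base windows occur in other genes.

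Members and the 27 lists (367 genes) and 13 pairs were chosen with earlier results of these data known. Genes named are, by rule, (a) the 10 largest log2 fold changes in each direction among called genes without overlap and with a mean of at least 10 CPM in the higher group, of which some are given; (b) the 10 largest differences in mean CPM; (c) up to 4 members of each list with the highest level in the population where most of it is higher, and, where 4 or fewer, its exceptions; (d) the genes of all pairs. Other members were named for their roles after their values were seen. Alternatives were DESeq2 1.42.0, upper-quartile and RLE scaling, no filter and a stricter filter, organelle genes kept, a TREAT test, all 27 libraries fitted together, the replicate number as a block, and each library left out.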

Additional observations from a re-analysis of the deposited data

How the results depend on the processing

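Against 8254 genes higher and 6026 lower in root, the alternatives with all 6 libraries gave 6863 to 8730 higher and 5119 to 7162 lower, apart from the stricter filter of 10 counts in every library. That filter removes by construction genes found in one population only, and it left 4559 higher and 4460 lower of 15664 tested. With all 27 libraries fitted together 6863 were higher and 7162 lower, 48.9% of calls higher in place of 57.8%, and the median of all genes moved by -0.37 on the log2 scale. Upper-quartile scaling moved it by 0.11 (8730 higher, 5738 lower), and DESeq2 gave 7644 and 6171. Leaving out 1 library gave 6343 to 8123 higher and 5631 to 6021 lower, since genes of root alone fail the filter without a root library. With the same genes kept, an alternative chosen after seeing the data, it gave 8029 to 8169 and 5869 to 6116. With the replicate block, 8006 were higher and 5968 lower. The numbers do not pair the samples (correlations of deviations 0.0905, -0.0220 and 0.0291, 2 of 3 numbers matching best).

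Of the 295 list members called, no alternative turned a direction. With the genes of the test unchanged, between 285 (TREAT) and 295 kept their call, and the stricter filter kept 138 of 139. *PHB*, *G6PD2*, *TIM* and *PIP1;5*, just under the limit on fold-difference, passed it in some alternatives. The depth of 15431767 counts in the shallowest library limits genes under about 0.232 CPM in GFP-positive cells, as for suberin and iron uptake genes.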

Other observations

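The root libraries differed among themselves by cell type list. Root replicate 3 was the lowest root library for 11 of 15 endodermis genes, 13 of 18 root hair genes and 17 of 19 aquaporins, and the highest for 13 of 16 cell cycle genes and 7 of 11 meristem and cap genes. Root replicate 2 was the lowest for all 16 cell cycle genes and the highest for 18 of 19 aquaporins. Among GFP-positive libraries, replicate 1 was the highest for all 18 antenna genes.

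Further list members had too few counts to be tested. The nitrate transporter *NRT2.2* had 0, 1 and 1 counts and the ammonium transporter *AMT1;5* had 0, 0 and 1 counts in the root libraries, and both had 0 in the GFP-positive libraries. *CYP82C4*, an enzyme of coumarin oxidation, had 1, 1 and 6 counts in root and 0 in GFP-positive cells, and *MYB72*, a regulator of iron uptake, had 0 counts in all 6 libraries. Of the phosphate transporters, *PHT1;3* had 0 counts in all 6 libraries and *PHT1;2* had 0, 1 and 1 counts in root and 0 in GFP-positive cells. The auxin carrier *PIN8* had 0 counts in all 6 libraries, and *PIN5* had 2, 1 and 2 counts in root, against 1, 0 and 0 in GFP-positive cells.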
